A study of Mus musculus with 4 samples.

Results

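The genes described here encode the scaffold of the heart muscle cell: titin, the Z-disc, the M-band, and the intercalated disc with its desmosomes, adherens junctions and gap junctions. They are a list of 32 genes, taken by symbol from the genes that the array accessions could be matched to. Of the 32, 31 had a probe with a matched name and Smpx had none. All 31 passed the filter on dim probes and were among the 12542 genes tested, of 20886 named on the array. Of the 31, 28 were well above background on every array. Nebl was so on 1 control and 1 doxycycline array, Ctnna3 on all but 1 control array, and Ankrd2 on the doxycycline arrays alone, so that Ankrd2 passed the filter only through the group in which it was higher.

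The heart muscle cells were taken from male mice at 10 weeks of age. All animals carried the same transgenes, a Cre driven by the αMHC promoter, which is active in heart muscle cells, and the Yamanaka factors (OSKM: Oct4, Sox2, Klf4 and Myc) under a tetO promoter. A tetO promoter responds to doxycycline through a transactivator protein, which the labels do not name. Control animals (CM-Ctl, 2 arrays) were treated with PBS for 2 days and doxycycline animals (CM-Dox, 2 arrays) with intraperitoneal doxycycline for 2 days, and no group analysed here received doxycycline without the factors. The labels do not say whether the 2 arrays of a group came from separate animals or whether animals were pooled, so the p-values cover only how far these samples lie apart, and that spread may be technical.

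In a heart muscle cell the Z-disc anchors the thin filaments and the ends of titin through α-actinin, while the M-band crosslinks the thick filaments at the centre of the sarcomere. Titin spans the distance between them and acts as a molecular spring. The intercalated disc joins neighbouring cells, mechanically through desmosomes and adherens junctions and electrically through gap junctions. Several Z-disc and titin-bound proteins are known as stress responders, whose transcripts change when heart muscle is stretched, overloaded or injured.

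Each level is the log2 processed signal less the array's own 75th percentile, and a difference is doxycycline minus control on that scale, with the standard error of the limma fit (SE, n = 2 per group). They are levels of a probe, so they are compared between arrays and not between genes. Before scaling, this percentile was 112 and 171 for the controls and 248 and 193 for doxycycline. The arrays lay on 1 slide, at positions that cannot be told apart from treatment. Of the introduced factors, Myc read -2.34 and -3.21 in control and 1.77 and -0.49 after doxycycline, a difference of 3.41 ± 0.77 (SE, adjusted p = 0.331 in limma). Klf4 differed by -0.28 ± 0.48 (adjusted p = 0.973), and Pou5f1 and Sox2 were not among the genes tested. Whether the Myc and Klf4 probes detect the introduced copies was not analysed here.

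Control array 1 stood apart from the other arrays. Its repeated spots had a median coefficient of variation of 10.99%, against 4.02% to 4.81% elsewhere. Of the 31 structural genes, 30 read lower on the first control array than on the second, with a median gap of -1.23, where 53.4% of all genes did so and the median gap over all genes was -0.08. The exception was Jup, which was 0.51 higher on control array 1. The gaps ran from -2.03 for Pkp2 through -1.17 for Ttn to -0.07 for Synpo2l. All 10 markers of general heart muscle were well above background on every array, and their median gap was -0.94, with 8 of 10 lower on control array 1. Their summed level, as multiples of the array's 75th percentile, was 4036 and 4569 for the controls against 3039 and 3816 for doxycycline. Most of that sum was Myh6, Myl2 and Myl3, and Myh6 and Myl2 were the markers higher on control array 1. The median difference of the 10 heart muscle markers was -0.06, or -0.39 without control array 1. Markers of fibroblasts, endothelium, smooth muscle, macrophages and red cells mostly read higher on control array 1. Those of skeletal muscle and of epithelial and mesothelial cells mostly read lower there, with median gaps of -0.55 and -0.73. All 10 fibroblast markers were higher on the first control array than on the second, and their summed level was 221 and 68.6 for the controls against 77.7 and 84.3 for doxycycline. Most of that sum was Dcn. Of the 10, 7 lay below both controls after doxycycline (20.8% of all genes tested). The median difference of the 10 was -2.31, or -1.39 without control array 1. Lum, for example, read 3.88 and 2.21 in control and -1.27 and -0.16 after doxycycline. All 10 endothelial markers were also higher on control array 1, at 600.2 and 194 against 185 and 251. All 7 macrophage markers tested, of 9 listed, did likewise (19.2 and 6.81, then 4.78 and 5.73), as did all 4 red cell markers tested, of 5 (98.3 and 19.3, then 12.5 and 14.9). Smooth muscle and pericyte markers were higher on control array 1 for 8 of 9 (83.0 and 68.1, then 34.0 and 26.6). Without control array 1 the median differences were 0.49 for endothelial, -0.25 for smooth muscle, -0.55 for macrophage and -0.46 for red cell markers. The part of these other cells in the levels below was not tested. In such preparations a smaller share of heart muscle cells and less RNA of a gene per cell cannot be told apart. Most results are therefore also given without control array 1, that is, as the doxycycline arrays against control array 2. Both comparisons use the same doxycycline arrays and the same control array 2.

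The scaffold genes as a group read higher after doxycycline, mainly against control array 1, and 5 with both groups above background stayed at least 1 log2 unit higher against control array 2 as well. Those 5 were Xirp1, Fhl1, Myot, Pdlim3 and Flnc. Ankrd2 was above background on the doxycycline arrays alone, and its difference is a bound. Actn2, Tcap, Myom1, Myom2, Dsp, Pkp2 and Dsg2 were among 11 genes that differed from control array 2 by less than 0.25. Over the 31 genes the median difference was 0.81, against -0.06 over all genes tested, and 27 were positive, where 45.2% of all genes were. Both doxycycline arrays lay above both control arrays for 14 of the 31 (14.5% of all genes tested), for 13 of them with a difference of at least 0.5 (9.88% of all genes tested), and below both for 2, Nebl and Synpo2l (20.8% of all genes tested). Without control array 1 the median difference was 0.18, against -0.11 over all genes. The doxycycline arrays then lay above control array 2 for 15 of the 31 (28.4% of all genes tested) and below it for 10 (44.3% of all genes tested), with 6 astride it. None of the 31 passed limma's test over all genes at an adjusted p under 0.05 (0.0% of all genes did), while with arrays scaled to their medians Xirp1 passed, and so did Ankrd2, whose control values were below background. At an unadjusted p under 0.05 there were 9 higher (3.17% of all genes) and 0 lower (3.89% of all genes). The smallest adjusted p among them was 0.313, for Xirp1. A difference of at least 1 was seen for 12 genes with all arrays (5.27% of all genes tested). For 6 the groups did not overlap and the difference was at least 1 with and without control array 1, which 2.71% of all genes tested met. The counts of genes higher after doxycycline include Ankrd2.

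**Figure D1:**
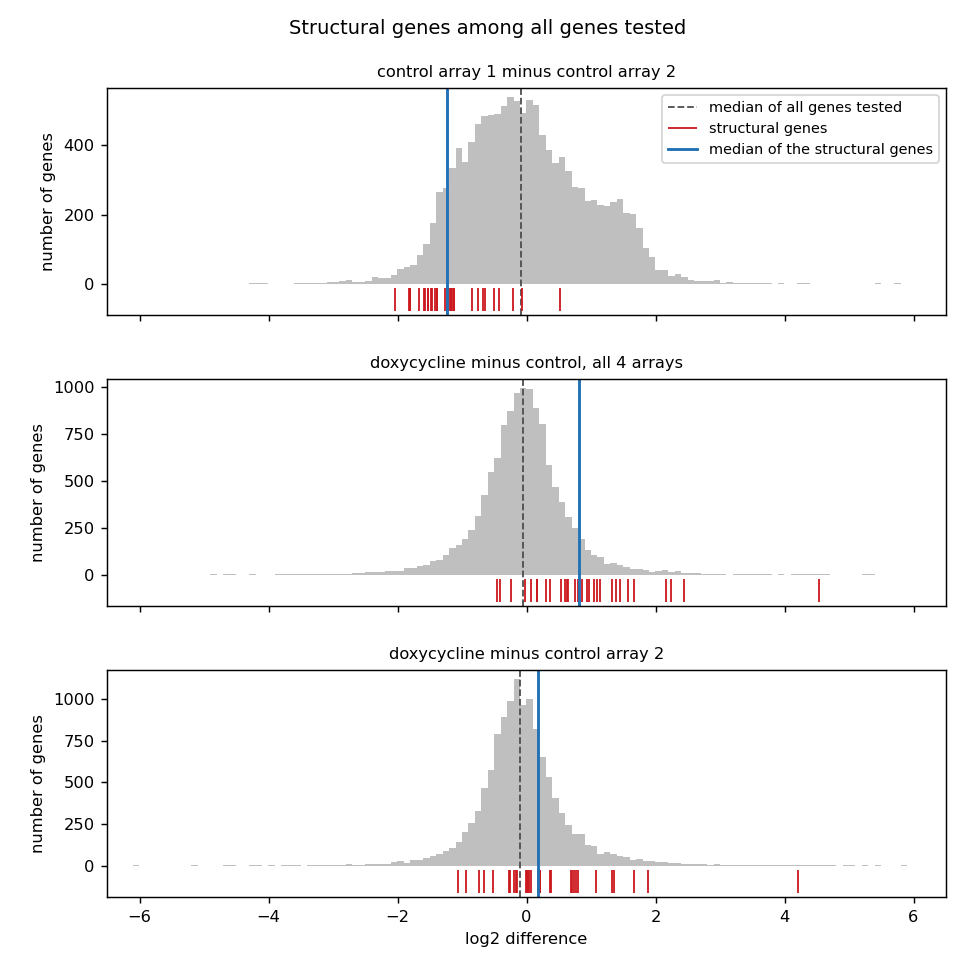
Number of genes (vertical axis) by log2 difference (horizontal axis) for control array 1 minus control array 2, for doxycycline minus control over all 4 arrays, and for doxycycline minus control array 2. Grey bars are all 12542 genes tested, the dashed line their median, red ticks the 31 structural genes and the blue line their median, which lies at -1.23, 0.81 and 0.18 from top to bottom.

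Promoter windows were examined for sites of factors known to act on muscle genes. The RefSeq table (GRCm38.p6) held windows of 250 bases before to 50 after the start for 25 of the 32 genes, 37 windows in all. Both strands were searched. A CArG box, the site of serum response factor, was present in 8 of the 37 windows (21.6%) and in 1.63% of all 32851 windows. A MEF2 site was present in 6 (16.2%) and in 3.19% of all. The M-CAT letters CATTCC, bound by TEAD factors, were in 8 (21.6%) and in 14.7% of all, and the AP-1 letters TGANTCA in 6 (16.2%) and in 7.81% of all. The E-box letters CANNTG were in 26 (70.3%) and in 72.3% of all. The E-box form CACGTG, which MYC and MAX bind and which is also a CANNTG match, was in 2 (5.41%), of Nebl and Actn2, and in 7.15% of all. Windows of the same gene can overlap and share a match. The CArG windows belonged to Fhl1, Fhl2, Ldb3, Myom1, Nebl and Vcl, genes with differences from -0.45 to 2.23, and the MEF2 windows to Fhl2, Myoz2, Synpo2l, Ttn and Xirp2. The sequences below are windows of members whose doxycycline arrays lay above both controls, and of Fhl2, which has a CArG box like Fhl1 but was lower against control array 2. Each is written 5′ to 3′ on the strand of the gene, with matches to the CArG box, the MEF2 site or CATTCC on either strand in capitals.
Fhl1 (chrX:56779433-56779732, + strand): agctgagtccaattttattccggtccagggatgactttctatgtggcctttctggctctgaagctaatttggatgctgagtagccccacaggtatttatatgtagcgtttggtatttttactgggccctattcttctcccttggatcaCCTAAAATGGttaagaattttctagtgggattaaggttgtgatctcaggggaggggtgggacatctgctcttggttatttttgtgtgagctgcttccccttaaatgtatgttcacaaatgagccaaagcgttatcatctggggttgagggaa
Fhl2 (chr1:43196712-43197011, - strand): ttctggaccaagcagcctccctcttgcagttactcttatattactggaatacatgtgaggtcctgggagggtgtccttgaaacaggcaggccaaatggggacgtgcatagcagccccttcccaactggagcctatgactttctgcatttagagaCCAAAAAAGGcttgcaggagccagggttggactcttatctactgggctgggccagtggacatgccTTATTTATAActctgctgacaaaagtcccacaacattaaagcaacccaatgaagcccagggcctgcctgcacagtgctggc
Xirp2 (chr2:67445752-67446051, + strand): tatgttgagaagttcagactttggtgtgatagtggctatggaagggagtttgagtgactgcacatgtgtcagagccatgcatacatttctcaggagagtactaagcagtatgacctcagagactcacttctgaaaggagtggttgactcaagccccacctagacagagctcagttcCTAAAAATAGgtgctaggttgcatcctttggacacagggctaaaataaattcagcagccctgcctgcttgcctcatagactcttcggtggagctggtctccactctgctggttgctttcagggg
Pdlim3 (chr8:45885237-45885536, + strand): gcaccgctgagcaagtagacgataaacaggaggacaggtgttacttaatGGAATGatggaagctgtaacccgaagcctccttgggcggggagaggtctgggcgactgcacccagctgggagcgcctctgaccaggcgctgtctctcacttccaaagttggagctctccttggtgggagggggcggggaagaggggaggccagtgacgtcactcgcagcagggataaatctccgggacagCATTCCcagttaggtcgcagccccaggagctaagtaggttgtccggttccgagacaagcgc
Flnc (chr6:29432903-29433202, + strand): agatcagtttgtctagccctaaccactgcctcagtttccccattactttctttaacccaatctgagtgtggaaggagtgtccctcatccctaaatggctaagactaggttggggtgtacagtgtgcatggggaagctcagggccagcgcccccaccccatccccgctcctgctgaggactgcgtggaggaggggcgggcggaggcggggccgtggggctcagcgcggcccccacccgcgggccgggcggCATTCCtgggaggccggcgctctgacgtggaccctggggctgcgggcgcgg
The capitals in the Fhl1 window are a CArG box, in the Fhl2 window a CArG box and then a MEF2 site, and in the Xirp2 window a MEF2 site. Those in the Pdlim3 and Flnc windows are M-CAT letters, the first of the Pdlim3 matches being on the opposite strand. A match is a description of letters, not a tested site.

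Titin, the spring that runs from Z-disc to M-band, did not stand out. Its brightest probe read 2.98 and 4.16 in control and 3.40 and 3.87 after doxycycline. Both doxycycline arrays thus lay between the control arrays, with a difference of 0.06 ± 0.52 (SE, adjusted p = 0.993 in limma). Without control array 1 it was -0.52, and both doxycycline arrays lay below control array 2. With quantile normalization the difference was -0.017. The other 3 titin probes did not move alike. They differed by -0.19, 0.97 and 0.15 with all arrays and by -0.84, 0.49 and -0.28 without control array 1. The probe at 0.97 read -0.96 and 0.00 in control and 0.26 and 0.72 after doxycycline, as the only titin probe whose groups did not overlap. Which exons these probes lie in was not analysed here.

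The Z-disc genes held some of the highest and some of the lowest values of the scaffold. Of 10, both doxycycline arrays lay above both control arrays for 6 (14.5% of all genes tested) and below both for 2 (20.8% of all genes tested). For the other 2 the groups overlapped. The median difference of the 10 was 1.03, or 0.29 without control array 1. Myot encodes myotilin, which binds α-actinin and filamin and is known in humans from myofibrillar myopathy. It read 0.66 and 2.32 in control and 3.55 and 3.75 after doxycycline. Both doxycycline arrays were above both controls, and the difference was 2.16 ± 0.60 (SE, 4.47-fold, adjusted p = 0.435 in limma), or 1.33 without control array 1. Flnc encodes filamin C, the muscle filamin that crosslinks actin at Z-discs and is recruited to damaged sarcomeres. It read 2.34 and 3.51 in control and 5.17 and 4.01 after doxycycline. These groups did not overlap, but the doxycycline arrays lay 1.15 apart, and the difference was 1.66 ± 0.59 (adjusted p = 0.614), or 1.08 without control array 1. Pdlim3, which encodes a PDZ and LIM domain protein bound to α-actinin, read 1.48 and 1.91 in control and 3.44 and 3.08 after doxycycline. Its control arrays were close together and below both doxycycline arrays. Its difference of 1.57 ± 0.42 (2.97-fold, adjusted p = 0.409) was 1.36 without control array 1.

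The other Z-disc genes differed less from control array 2, by -0.66 to 0.37 on the probes used for the test. Actn2, the α-actinin of heart muscle that crosslinks thin filaments, read 4.90 and 6.42 in control and 6.81 and 6.45 after doxycycline. Doxycycline array 2 was thus almost level with control array 2, and the difference of 0.97 ± 0.58 (SE, adjusted p = 0.856 in limma) shrank to 0.21 without control array 1. Myoz2, the calcineurin-binding calsarcin of the heart, read 5.08 and 6.51 in control and 7.04 and 6.72 after doxycycline, and its 1.09 ± 0.56 became 0.37. Pdlim5, a scaffold for kinases at the Z-disc, read 3.72 and 5.25 in control and 5.87 and 5.38 after doxycycline, and its 1.14 ± 0.59 became 0.37. Its dimmest probe read -1.41 and -1.87 in control and 0.26 and -0.91 after doxycycline, and differed by 1.32, or 1.54 without control array 1. That probe was lower on the second control array than on the first, unlike the other Pdlim5 probes. Ldb3, also called Cypher or ZASP, differed by 0.16 and the titin cap gene Tcap by 0.37, and without control array 1 by -0.26 and -0.01. With quantile normalization Ldb3 was at -0.0015. Synpo2l, which encodes an actin-binding protein of the Z-disc, was among the steadiest, with levels from 3.19 to 3.65 and a difference of -0.24, which was 0.11 with median scaling. Nebl, whose protein nebulette links thin filaments to the Z-disc, read -4.02 and -3.51 in control and -4.19 and -4.16 after doxycycline. Its probe was near background, and the difference was -0.41 ± 0.41 (adjusted p = 0.935), or -0.66 without control array 1 and 0.03 with quantile normalization.

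**Figure D2:**
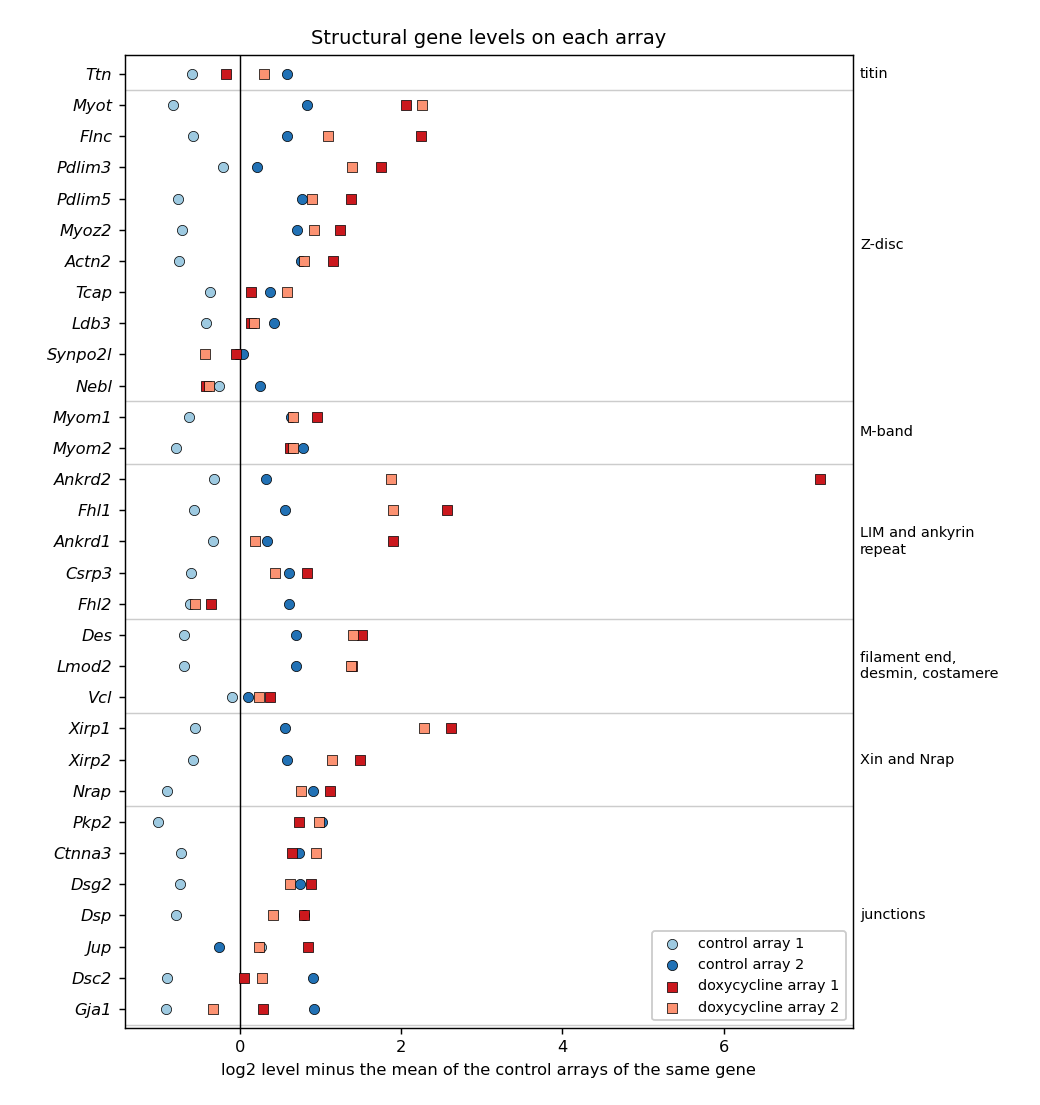
Level of each of the 31 genes (vertical axis, grouped by structure) on each array, as log2 level minus the mean of the control arrays of the same gene (horizontal axis). Circles are control and squares doxycycline arrays. Control array 1 is the lowest or nearly the lowest point for most genes, and Ankrd2 on doxycycline array 1 lies far to the right of all other points; the Dsp points of control array 2 and doxycycline array 1 coincide.

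The M-band genes lay close to control array 2. Myom1 encodes myomesin, which ties thick filaments together and binds titin. It read 4.14 and 5.40 in control and 5.73 and 5.42 after doxycycline, and differed by 0.81 ± 0.53 (SE, adjusted p = 0.879 in limma), or 0.18 without control array 1. Myom2, its paralogue of fast and adult heart muscle fibres, read 6.39 and 7.96 in control and 7.80 and 7.83 after doxycycline, so that both doxycycline arrays lay just below control array 2. It differed by 0.64 ± 0.58 (adjusted p = 0.912), or -0.15 without control array 1.

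Among the LIM and ankyrin repeat proteins, which bind titin or the Z-disc and are known as strain responders, the members diverged most. Fhl1, whose protein binds the spring region of titin and is known from hypertrophy, read -2.87 and -1.74 in control and 0.27 and -0.41 after doxycycline. Both doxycycline arrays were more than 1 log2 unit above both controls. The difference was 2.23 ± 0.53 (SE, 4.70-fold, adjusted p = 0.350 in limma), or 1.67 without control array 1. Its processed signal in control was dim, at 15.4 and 51.1, and with normexp background correction the difference was 1.19. Its relative Fhl2, which also binds titin and acts as a transcriptional cofactor, read 7.05 and 8.28 in control and 7.31 and 7.11 after doxycycline. With all arrays the groups overlapped, with a difference of -0.45 ± 0.52 (adjusted p = 0.943). Against control array 2 both doxycycline arrays were lower, by 1.07 on average, the lowest value of any structural gene in that comparison. Csrp3, the muscle LIM protein, had levels from 5.94 to 7.37 and differed by 0.63, or 0.03 without control array 1.

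Ankrd2 and Ankrd1 encode related ankyrin repeat proteins of the titin spring region, the first best known from stretched skeletal muscle and the second from overloaded heart. Both were high on doxycycline array 1 and not, or far less, on doxycycline array 2. The Ankrd2 probe gave a processed signal of 1.93 and 4.59 in control, not well above background, and of 779 and 15.1 after doxycycline. On the log2 scale it read -5.86 and -5.22 in control and 1.65 and -3.67 after doxycycline, a gap of 5.32 between the doxycycline arrays. Against the lowest processed signals that were well above background, the doxycycline mean was at least 7.13-fold higher, a bound that was not tested. The adjusted p of 0.562 in limma belongs to the fit on the control values below background. With normexp background correction the log2 difference was 1.57. The lowest levels well above background were -3.69 and -4.00 on the control arrays, so that doxycycline array 2 lay close to those floors and the bound rests on doxycycline array 1. Ankrd1 read 5.39 and 6.06 in control and 7.62 and 5.91 after doxycycline. Doxycycline array 2 lay between the controls, and the difference of 1.04 ± 0.64 (adjusted p = 0.863) was 0.19 without doxycycline array 1 and 1.90 without doxycycline array 2. Of the 31 genes, 22 read higher on doxycycline array 1 than on doxycycline array 2.

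Markers of fast and developing skeletal muscle were examined beside Ankrd2 and Myot, which that tissue also uses. Of 13, 8 were not well above background on any array: Actn3, Myh1, Myh2, Myh3, Myh4, Mylpf, Myod1 and Myog. The summed level of all 13 was 104 and 129 in control and 101 and 101 after doxycycline, most of it Myh8. Of the 5 tested, 4 read higher after doxycycline (45.2% of all genes tested) and 3 lay above both controls (14.5% of all genes tested). Their median difference was 0.78, or 0.25 without control array 1. Tnni2, the fast skeletal troponin I, read -0.01 and 0.54 in control and 1.59 and 1.18 after doxycycline. Its list's part in the levels of Ankrd2 and Myot was not tested.

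The 3 genes measured of the filament end, the intermediate filament and the costamere, Lmod2, Des and Vcl, read higher after doxycycline with and without control array 1, and none passed the test. Des encodes desmin, the intermediate filament that links Z-discs to one another and to the discs between cells, and was measured by 10 spots. It read 2.85 and 4.23 in control and 5.05 and 4.94 after doxycycline. Both doxycycline arrays were close together and above both controls, with a difference of 1.46 ± 0.54 (SE, 2.74-fold, adjusted p = 0.646 in limma), or 0.77 without control array 1. Lmod2, which encodes the leiomodin that lengthens thin filaments at their pointed ends, read -0.70 and 0.69 in control and 1.38 and 1.38 after doxycycline. It differed by 1.38 ± 0.54 (adjusted p = 0.677), or 0.69 without control array 1. Vcl, the vinculin of costameres and adherens junctions, read 1.0 and 1.20 in control and 1.48 and 1.34 after doxycycline. These groups did not overlap, but the gap was small, at 0.31 ± 0.40 (adjusted p = 0.956), or 0.20 without control array 1. A second Vcl probe differed by 0.86, or 0.63 without control array 1.

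Of the scaffold genes, Xirp1 gave the smallest p. Xirp1 encodes Xin, an actin-binding repeat protein of the intercalated disc and of sites of myofibril repair, and it has a partner in filamin C. It read 0.97 and 2.09 in control and 4.14 and 3.81 after doxycycline. Each doxycycline array exceeded the higher control by more than 1 log2 unit. The difference was 2.45 ± 0.50 (SE, 5.46-fold, adjusted p = 0.313 in limma), or 1.89 ± 0.35 without control array 1 (3.70-fold). Xirp2, its relative, read -0.71 and 0.46 in control and 1.37 and 1.02 after doxycycline, and differed by 1.32 ± 0.51 (adjusted p = 0.662), or 0.74 without control array 1. Nrap, a nebulin-related anchor that takes part in myofibril assembly, read 3.79 and 5.60 in control and 5.81 and 5.45 after doxycycline on its brighter probe. The doxycycline arrays lay on either side of control array 2, and the difference of 0.94 ± 0.64 became 0.03 without control array 1. Its dimmer probe read 0.15 and 2.12 in control and 3.75 and 3.25 after doxycycline. On that probe both doxycycline arrays were above both controls, with a difference of 2.37, or 1.38 without control array 1, so the Nrap probes disagreed.

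**Figure D3:**
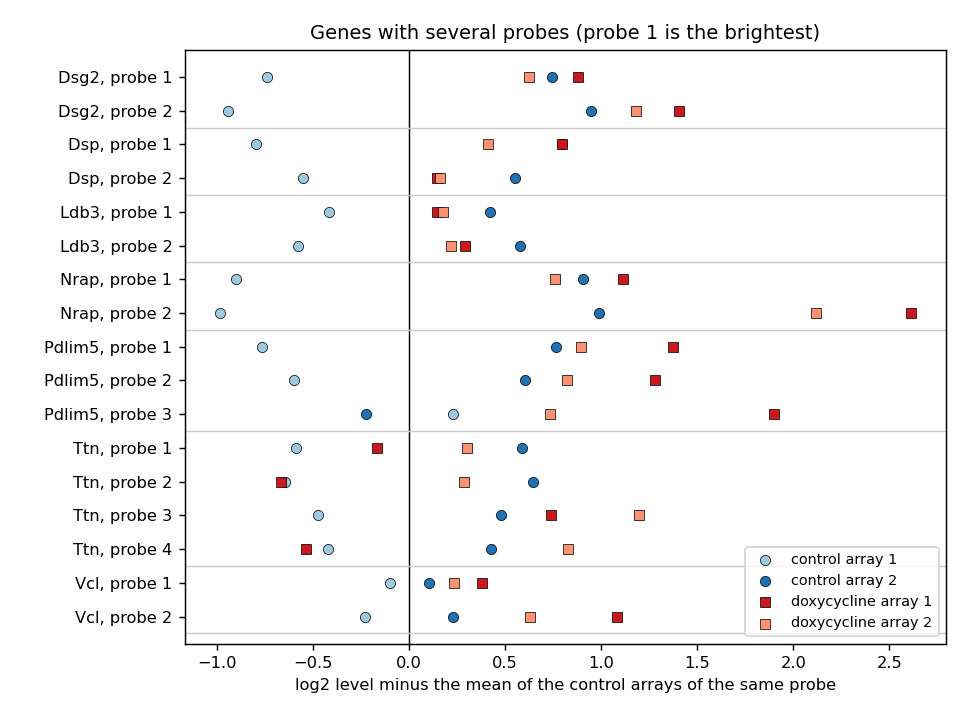
Every probe of the 7 genes with several probes (vertical axis), as log2 level on each array minus the mean of the control arrays for that probe (horizontal axis). Circles are control and squares doxycycline arrays. The dimmer Nrap probe sits further right after doxycycline (difference 2.37) than the brighter (0.94), and the titin probes range from -0.19 to 0.97.

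For the cell junction genes, as for titin, the groups overlapped on the probes used for the test. Of 7, 0 had both doxycycline arrays above both control arrays (14.5% of all genes tested) and 0 below (20.8% of all genes tested). Such overlap was common, and was seen for 8113 of the 12542 genes tested. Their median difference was 0.60 with all arrays and -0.16 without control array 1. Pkp2, the desmosomal plakophilin, had the largest gap between control arrays, at 2.41 and 4.44, and read 4.16 and 4.40 after doxycycline. It differed by 0.86 ± 0.68 (SE, adjusted p = 0.897 in limma), and by -0.16 without control array 1. Desmoplakin (Dsp), which ties desmosomes to desmin, differed by 0.60 and the desmosomal cadherin Dsg2 by 0.75, or -0.19 and 0.01 without control array 1. A second probe of each differed by 0.15 and 1.29, or -0.40 and 0.35 without control array 1. On that dimmer Dsg2 probe both doxycycline arrays lay above both controls. The second probes of Dsp and Dsg2 were each well above background on 3 arrays only. The α-catenin gene Ctnna3 differed by 0.80, or 0.07 without control array 1 and -0.15 with normexp background correction. The other desmosomal cadherin, Dsc2, differed by 0.16, or -0.74 without control array 1 and -0.023 with normexp. Gja1 encodes the connexin of the main gap junction channel of the working heart, and was measured by 10 spots. It read 0.30 and 2.13 in control and 1.50 and 0.88 after doxycycline, between the controls, and differed by -0.03 ± 0.66 (adjusted p = 0.998), or -0.94 without control array 1 and 0.32 with median scaling. Jup, the plakoglobin that desmosomes and adherens junctions share, was the 1 junction gene whose doxycycline arrays both lay above control array 2, by 0.79. It differed by 0.54 with all arrays, and by 0.06 with normexp. Of 8 markers of epithelial and mesothelial cells, which also carry desmosomes, Dsg1a, Dsg3, Krt5 and Krt14 were not well above background on any array. The summed level of that list was 4.66 and 4.99 in control and 5.16 and 5.65 after doxycycline.

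**Figure D4:**
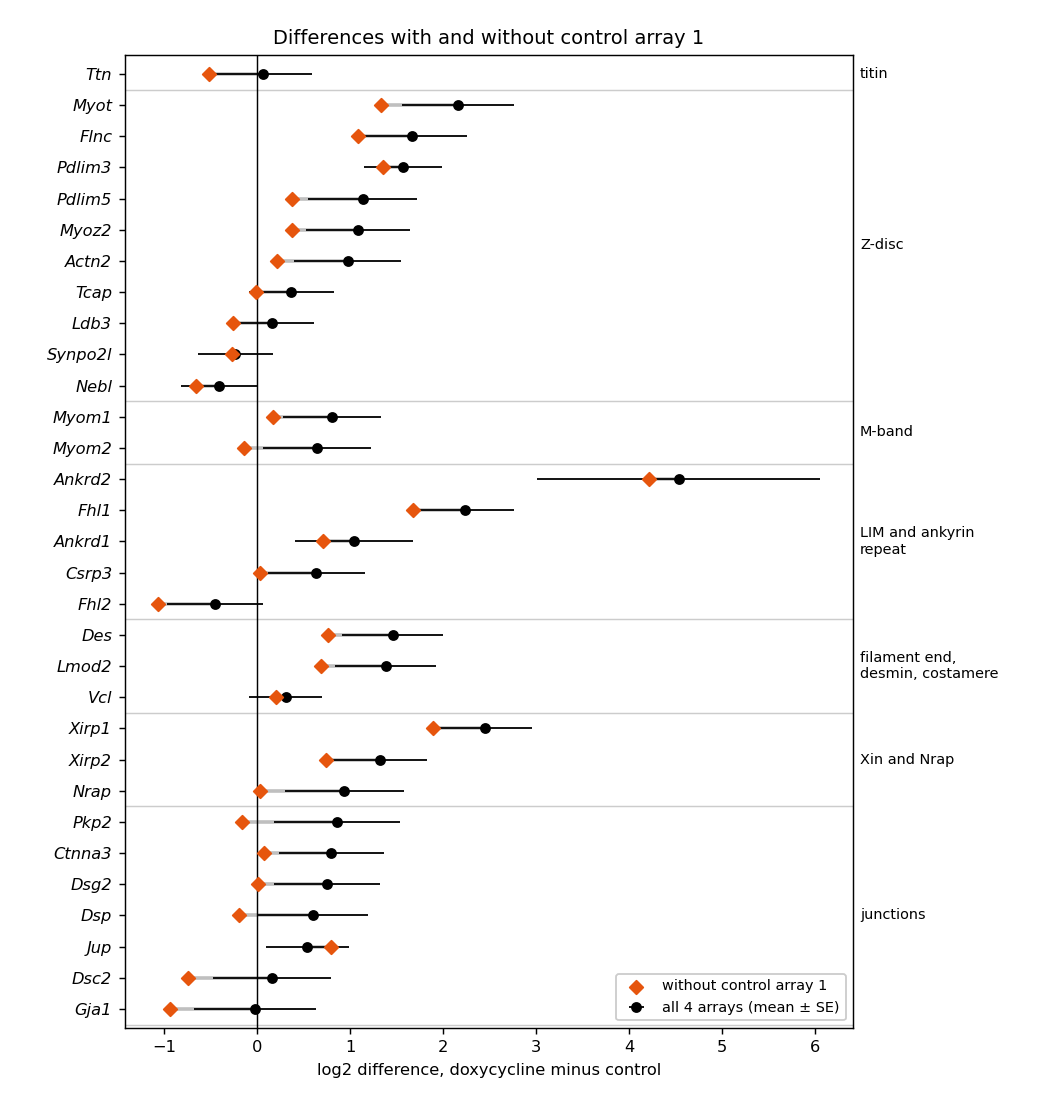
Log2 difference, doxycycline minus control (horizontal axis), of the 31 genes grouped by structure (vertical axis). Black points are all 4 arrays with the SE of the limma fit and orange diamonds the value without control array 1. The diamonds of Xirp1, Fhl1, Myot, Pdlim3 and Flnc stay above 1, as does that of Ankrd2, whose control arrays were below background, while those of the junction genes lie between -0.94 and 0.79.

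Other genes of the same structures, 98 in number and taken from lists that the members are not in, are given for comparison, and the difference between the lists was not tested. Of 95 tested, both doxycycline arrays lay above both controls for 24 (25.3%, against 14.5% of all genes) and below both for 14 (14.7%, against 20.8%), and the median difference was 0.28, or -0.04 without control array 1. None passed limma's test at an adjusted p under 0.05, and 4 higher (4.21%, against 3.17% of all genes) and 3 lower (3.16%, against 3.89%) had an unadjusted p under 0.05. Among 26 other Z-disc genes, 8 lay above and 3 below both controls, with a median of 0.42, or 0.41 without control array 1. Hspb7, a small heat shock protein of heart muscle that binds filamin C, read 4.05 and 5.40 in control and 6.49 and 6.18 after doxycycline, a difference of 1.61 ± 0.54 (SE, adjusted p = 0.571), or 0.93 without control array 1. Mypn, the myopalladin that binds Ankrd1 and nebulette, differed by 1.40 ± 0.60, and Pdlim2, another PDZ and LIM domain protein, by -1.61 ± 0.72. Without control array 1 the values were 0.63 and -0.70. Mypn was well above background on 3 arrays only. Among 16 M-band and titin-associated genes, 6 lay above and 1 below both controls, with a median of 0.37, or -0.22 without control array 1. Sqstm1, the autophagy receptor p62 that titin's kinase region can recruit, differed by 1.52 ± 0.43 (adjusted p = 0.448), or 1.18 without control array 1, and Trim54, a muscle RING finger protein that binds microtubules and titin, by 1.35 ± 0.55. Capn3, the calpain of muscle that titin binds, differed by 1.04 ± 0.48. Without control array 1 Trim54 was at 0.65 and Capn3 at 0.54. Capn3 too was well above background on 3 arrays only. Among 17 other intercalated disc genes, 3 lay above and 4 below both controls, with a median of -0.15, or -0.41 without control array 1. Gja5, the connexin of atria and conduction fibres, differed by -1.46 ± 0.68 and the catenin Arvcf by -0.91 ± 0.42. Ank3, the membrane anchor ankyrin G, differed by 0.72 ± 0.44. Without control array 1 Gja5 was at -0.68, Arvcf at -0.78 and Ank3 at 0.36. Markers of atrial muscle differed between arrays as well, with a summed level of 162 and 176 for the controls against 157 and 86.5 for doxycycline, most of it Nppa on every array but the first control. The median gap between the control arrays was 2.75, and Myl4, an atrial myosin light chain, read 6.17 and 3.44 in control and 2.58 and 4.60 after doxycycline. Gja5 itself read -0.21 and -1.77 in control and -3.12 and -1.78 after doxycycline. A part of atrial muscle in the Gja5 values was not tested.

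Costamere, integrin and intermediate filament genes had a median difference of 0.35 over 30 tested, or 0.09 without control array 1. Of the 30, 7 lay above both controls (14.5% of all genes tested) and 4 below both (20.8% of all genes tested). Synm, the synemin that copolymerises with desmin, went opposite to Des, at -1.54 ± 0.58 (SE, adjusted p = 0.659 in limma). It read 0.22 and -1.28 in control and -2.34 and -1.80 after doxycycline, and its level was higher on the first control array than on the second. Vasp, an actin regulator of cell adhesions, differed by -1.03 ± 0.42. Without control array 1 Synm was at -0.79 and Vasp at -0.76. Lmod3, the leiomodin best known from skeletal muscle, read 3.42 and 4.61 in control and 1.83 and 1.87 after doxycycline. Both doxycycline arrays were more than 1 log2 unit below both controls, a difference of -2.17 ± 0.51 (4.48-fold, adjusted p = 0.350), or -2.76 without control array 1, while its relative Lmod2 was at 1.38 and 0.69. Among the 6 genes of filament end capping tested, 0 lay above and 2 below both controls, with a median of -0.25, or -0.36 without control array 1. The markers of other cells given above differed between the control arrays. Against control array 2 their median differences were -1.39 for fibroblast, 0.49 for endothelial and -0.25 for smooth muscle markers. They were -0.55 for macrophage and -0.46 for red cell markers. The part of these cells in the values here was not tested.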

How the data were processed

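RNA was measured on 4 Agilent 1-colour arrays, grouped by sample title. Spot intensity was extracted by the authors in Agilent's Feature Extraction 10.7.1.1, per the file headers. The deposited processed values have the background subtracted and are detrended within the array, linear, and not normalized between arrays; the sources used here give no later step. Per array there were 43020 spots that were not controls, for 39429 probes, and 0 were saturated. Between 50.6% and 51.8% of spots were well above background, which with the number of arrays limits the precision.

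Signals were log2-transformed and the 75th percentile of the array subtracted. Outlier spots were dropped, then spots sharing a probe were averaged. Array accessions, without versions, were named through a RefSeq gene table of GRCm38.p6 (27508 probes matched, 1641 RefSeq accessions did not and 10280 had other identifiers); the array design is of mm9, and no gene coordinates were taken across. A probe had to be well above background on 2 or more of the 4 arrays, and the brightest stood for a gene. The two-sided test was limma 3.58.1 in R 4.3.3 (lmFit and eBayes, 4.69 prior and 2 residual degrees of freedom), with Benjamini-Hochberg adjustment over all genes at 0.05. A permutation test of 2 arrays against 2 cannot give a p below 0.333. The limma fit was tested on simulated arrays, all with equal noise, so that none stood apart as control array 1 did. Values on every array are given for titin, for members with groups that did not overlap and a difference of at least 0.5, and for the highest and lowest member of each structure; related genes named are those with the smallest p of their list, of which 1 is not reported here. Members of interest outside that rule (Ankrd1 and further probes) were chosen after their values were seen. The members and all lists were chosen with earlier results of these data known. Alternatives were quantile normalization, median scaling, normexp background correction (offset 50, on the median spot signal), other filters on dim probes, the probe mean, a trended or robust variance prior, blocking on replicate number, and each array left out. Plots were made in Python 3.11.15 with matplotlib 3.10.9.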

Additional observations from a re-analysis of the deposited data

How the results depend on the processing

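No gene passed in the main analysis (limma, 886 at an unadjusted p under 0.05), and the count was also 0 under 9 of the 13 alternatives. It was 128 with scaling to the median (95 higher, 33 lower), which moved the median of all genes from -0.06 to 0.29, and 0 to 171 when an array was left out (32 without doxycycline array 1, 171 without doxycycline array 2). Of the structural genes 0 passed, 2 with median scaling (Xirp1 and Ankrd2) and 0 to 1 with an array left out (Ankrd2 without doxycycline array 2, against control values below background). With the replicate number as a block 295 genes passed, 4 of them structural (Ankrd2, Fhl1, Myot and Xirp1); same-numbered arrays did not deviate together (r = -0.085 across genes), so the numbers are not taken to pair samples. The median of the structural genes was 0.18 to 1.49 with an array left out, lowest without control array 1 and highest without control array 2, and 0.79 with quantile normalization, 1.15 with median scaling and 0.84 with normexp. Of 400 values of single genes, 375 kept their direction and side of the threshold, 18 turned and 7 passed. With an array left out the range crossed 0 for Ttn (-0.52 to 0.65), Ldb3 (-0.26 to 0.58), Tcap (-0.0083 to 0.74), Myom2 (-0.15 to 1.43), Fhl2 (-1.07 to 0.16), Dsp (-0.19 to 1.40), Pkp2 (-0.16 to 1.87), Dsc2 (-0.74 to 1.07) and Gja1 (-0.94 to 0.89). The sign also turned for Ttn (-0.017), Ldb3 (-0.0015) and Nebl (0.031) with quantile normalization, for Synpo2l (0.11) and Gja1 (0.32) with median scaling and for Dsc2 (-0.023) and Ctnna3 (-0.15) with normexp, and on a dimmer titin probe (-0.19), compared after seeing the data. The cause of these shifts was not tested.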
